A study of Mus musculus with 6 samples.

Results

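Introns that stay in polyadenylated RNA of unmodified mouse embryonic stem (ES) cells were followed into cells that lack the splicing factor ZRSR2. The introns were chosen by their wild-type read counts. An intron was taken as detained when, over the 3 wild-type libraries together, it was autosomal and carried at least 100 reads across its exon-intron boundaries (unspliced reads). Its MSI had to be at least 20%, each boundary had to hold at least 25% of the unspliced reads, and no other listed intron of the same strand could overlap it. MSI is the deposited measure of the unspliced share, 100 × unspliced / (unspliced + 2 × spliced), where spliced reads join the 2 neighbouring exons. Of 219945 listed introns, 209020 were autosomal, 9199 of these had enough unspliced reads, 5309 were balanced between both ends, 4379 were free of overlap, and 458 reached the MSI minimum. The other 3921 introns, which met every condition but the MSI minimum, served as the comparison.

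The wild-type group and the ZRSR2 KO group held 3 libraries each of the ES cell line VGB6, numbered P2, P3 and P5 in the titles of both. What P stands for is not stated, and the numbers are used here as replicate numbers. Each library was polyA-selected total RNA. How the knockout was made, whether it is 1 clone, and whether replicates are separate cultures is not stated in the labels. The p-values therefore cover the spread among these 6 libraries alone, and that spread may be technical. In the edgeR fit described below it was in effect shared across introns. An SE or p there does not measure 1 intron's own spread between libraries. Spliced reads of Zrsr2 itself numbered 660, 2190 and 2129 in wild type, then 33, 12 and 0 in the knockout. Libraries held 19801687 to 63623214 spliced and 700433 to 2140886 unspliced reads, and the 458 introns took 3.30% to 3.88% of the unspliced reads. All 12 listed ES cell marker genes reached a level of 10 CPM (spliced reads scaled to a common library total) in every library (summed level 2367 to 2517 in wild type, 2358 to 2555 in the knockout). The 8 fibroblast or feeder markers summed to 69.7 to 315 in wild type, then 31.1 to 343 in the knockout. None of these 8 was at 0, and 2 of them reached 10 CPM in every library. Their part in the results was not tested.

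Most introns are removed while the transcript is being made. A detained intron remains after polyadenylation, and such transcripts are known to be kept in the nucleus, where they can be spliced later or degraded. In ES cells and other cells this is known above all for genes of the splicing machinery, among them those of SR proteins and of the CLK kinases that phosphorylate them. ZRSR2 recognises the 3′ splice site of minor (U12-type) introns, which are rare and sit mostly 1 to a gene among ordinary introns. RNA of whole cells was sequenced, so where the transcripts lay was not measured, and "detained" stands here for the read counts of the rule. In bulk RNA, fewer cells that keep an intron and fewer unspliced transcripts per cell cannot be told apart.

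The letters of a splice site could be read where a detained intron reaches into a promoter window of RefSeq (GRCm38.p6, the assembly that mm10 names). The following stretches show what was counted: the boundary where the unspliced reads cross. They run 5′ to 3′ along the intron's strand, with 3 exon bases at the boundary, and the capitals mark the first 2 or last 2 bases of the intron.
Platr14, chr2:104559482-104559508, plus strand: ttgGTaaggacccaccagtgggaacct
Slc7a7, chr14:54417630-54417659, minus strand: aggGTatccgcagtctttttcattccccgg
Yipf2, chr9:21592472-21592530, minus strand: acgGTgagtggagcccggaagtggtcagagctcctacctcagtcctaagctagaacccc
Rnf220, chr4:117289110-117289205, minus strand: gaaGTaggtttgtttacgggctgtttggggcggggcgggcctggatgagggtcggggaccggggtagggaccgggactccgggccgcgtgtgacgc
Mettl27, chr5:134932446-134932573, plus strand: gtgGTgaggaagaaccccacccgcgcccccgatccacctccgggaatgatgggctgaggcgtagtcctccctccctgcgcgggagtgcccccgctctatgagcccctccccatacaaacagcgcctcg
Mast1, chr8:84913239-84913322, minus strand, the whole intron: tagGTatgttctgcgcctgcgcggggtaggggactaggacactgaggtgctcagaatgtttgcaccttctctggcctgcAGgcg

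All 9 detained introns with a readable 5′ end began with GT and all 3 with a readable 3′ end finished with AG, against 98.1% of 3005 and 99.1% of 1898 other listed introns. The Mast1 intron is shown whole, 78 bases from GT to AG. The intron of Slc7a7, an amino acid transporter gene, began with GTATCC, the letters with which a GT-AG intron of the U12 type usually begins, searched on the intron's strand at its first base only. These letters began 1 of 9 detained and 6 of 2829 other readable introns (0.212%), and the example was chosen after it was seen. The Slc7a7 intron (886 bases, the first of 10) had MSI of 33.6%, 26.6% and 32.3% in wild type, then 26.9%, 23.6% and 27.3% in the knockout. The groups overlapped. The match is a description of these letters alone, not of the bases that follow them, and does not class the intron.

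Before lengths are compared, 9 of the 458 introns have to be set apart because they span only 1 to 7 bases. Oaz1 and Oaz2 hold the most read of them, and these antizyme genes are known for a programmed shift of the reading frame by which cells control polyamines. The Oaz1 interval is a single base, chr10:80828295, with 26190 wild-type unspliced reads summed over both boundaries. Its MSI lay between 49.6% and 49.9% in all 6 libraries. A read that crosses both boundaries can enter such a sum at each, in longer but still short introns too. Such reads were not counted apart. In wild-type replicate 3 the lower boundary held 5006 reads, the upper 5117 and the spliced count was 5140, so the 3 counts were nearly equal. In Oaz2 (chr9:65686272) MSI lay between 48.8% and 50.1%. Of the 9 intervals, 7 had pooled MSI between 47% and 53% in wild type, and 7 did in the knockout. Known introns are far longer than these gaps, so their counts are not read here as intron detention. The other 449 introns, 65 to 9141 bases long, are described from here on.

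The 449 introns lay in 310 genes, with 10 in no named gene. Of these 10, 1 lies within chr2:98666670-98667232, a stretch of mm10 known for collecting reads of repeats, beside 2 of the intervals of 1 to 7 bases. Protein-coding genes held 415 and long non-coding RNA genes 21. The non-coding share was 4.68%, against 1.02% among comparison introns. Non-coding examples were Gas5, Meg3, Snhg1, Zfas1, Snhg5, Snhg12, Snhg17, Snhg16, Dancr and Mir22hg. Hosts of small nucleolar RNAs and an imprinted transcript were among them. Detained introns were short, with a median of 239 bases (quartiles 108 and 647) against 357 (122 and 1055) for comparison introns. The share of introns that were detained, among those that met the other conditions, was 11.2% at 11 to 99 bases, 13.3% from 100 to under 300, 9.81% from 300 to under 1000 and 6.90% at 1000 or more, and 10.3% over all 4368.

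**Figure D1:**
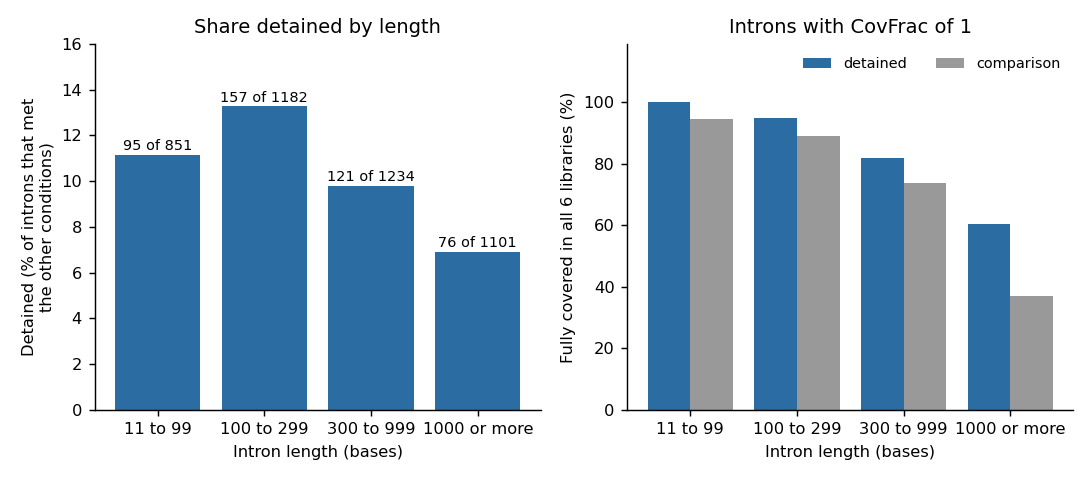
Left, the share of introns that were detained (y, percent of introns meeting the other conditions) by length (x, bases), with counts above the bars. Right, the share with a deposited covered fraction of 1 in all 6 libraries (y, percent) for detained (blue) and comparison (grey) introns. The detained share was highest from 100 to under 300 bases (13.3%) and lowest at 1000 bases or more (6.90%), and in the longest class 60.5% of detained against 37.2% of comparison introns were fully covered.

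Position in the gene and divisibility of the length were close to those of the comparison introns. Among introns with a known place, 8.96% of detained and 6.30% of comparison introns were the first of their gene, and 14.3% and 12.9% were the last. A length divisible by 3, which would keep the reading frame if no stop codon lay inside, was found in 32.1% and 32.4%. A gene of the other strand overlapped 7.80% of detained and 2.48% of comparison introns. The strand setting of the counts is not given in the sources used here, so reads of such a gene cannot be told from those of the intron.

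The reads covered the introns nearly end to end. The deposited CovFrac, read here as the fraction of the intron with coverage, was 1 in all 6 libraries for 389 of the 449 (86.6%) and for 72.2% of comparison introns. In the longest class, 46 of 76 detained introns (60.5%) were fully covered. Mean CovFrac in wild type was under 0.9 for 6 introns, among them those of Rnf220 (0.791 to 0.806 in all 6 libraries), the translation factor gene Eif4g3 (0.559, 0.921 and 0.898 for wild type, then 0.901, 0.791 and 0.944 for the knockout) and Ccdc40 (0.646, 0.955 and 0.865, then 0.887, 0.777 and 0.770). In Rnf220, the gene of a ubiquitin ligase, the fraction was nearly the same in every library. In the other 2 it varied between libraries of 1 group. The longest intron, 9141 bases of the ankyrin repeat gene Ankrd10 (chr8:11619298-11628438), had a mean CovFrac of 1 in wild type, then 0.999 in the knockout.

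The knockout libraries had no part in the choice, and most introns were detained there too. The median MSI of the 449 was 29.1% in wild type, where it was chosen, and 29.3% in the knockout. Library medians were 29.1%, 31.2% and 28.4% in wild type, then 28.6%, 32.4% and 29.2% in the knockout. In both groups replicate 3 had the highest median. With the 3 knockout libraries pooled, 392 of 449 (87.3%) reached 20%, 343 met the whole rule, and 24 reached 20% in no single knockout library. All 3 wild-type libraries were at the minimum for 332 introns, all 3 knockout libraries for 316, and all 6 for 278. Under 100 unspliced reads were left in the knockout for 55.

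**Figure D2:**
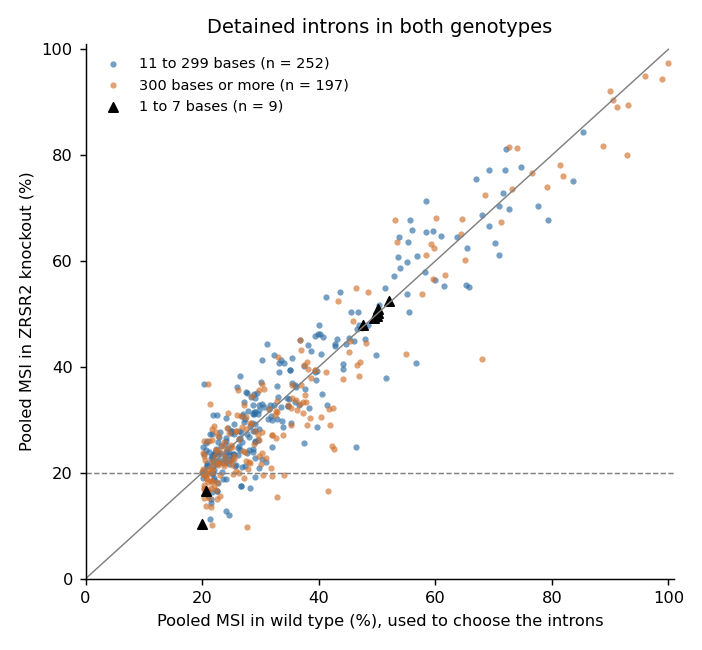
Pooled MSI of each detained intron in the knockout (y, percent) against wild type (x, percent), by length; the solid line is equality and the dashed line the 20% minimum. The points follow equality from 20% upward, 392 of the 449 longer introns lie on or above the dashed line, and 7 of the 9 intervals of 1 to 7 bases sit near 50%.

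The share at the minimum was also read in each wild-type library after leaving it out of the choice. When introns were chosen without wild-type replicate 2, 82.0% of 422 were at the minimum in that library, and 79.4%, 87.7% and 82.5% in knockout replicates 2, 3 and 5. Chosen without replicate 3, 92.0% of 286 were at the minimum in it, and 84.6%, 88.1% and 87.1% in the knockout. Chosen without replicate 5, 77.5% of 293 were at the minimum in it, and 79.9%, 94.5% and 84.6% in the knockout. The wild-type library left out thus lay below all 3 knockout libraries in 1 round, above all 3 in 1 round and between them in 1 round. The median absolute difference in MSI between 2 libraries was 5.03 to 5.73 points among wild types, 4.57 to 5.78 among knockouts and 4.53 to 6.64 across genotypes. Across the 449 introns pooled MSI in the genotypes had a Spearman rho of 0.85, a description over introns that share their libraries.

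**Figure D3:**
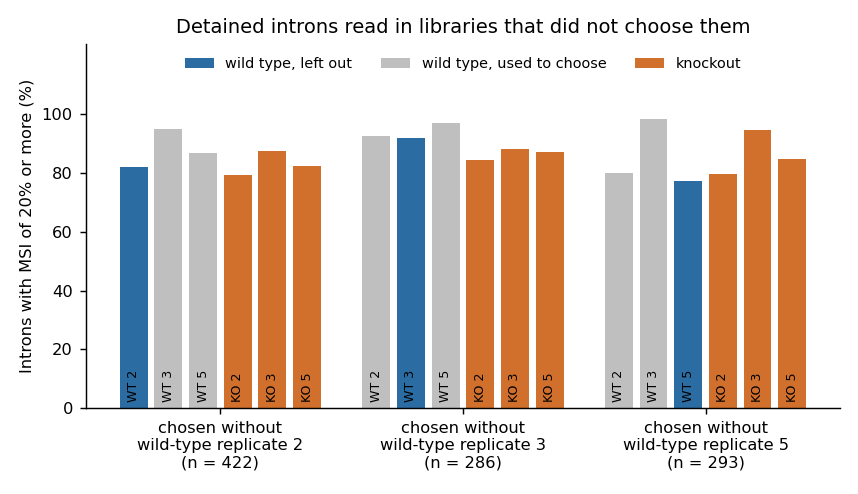
Share of introns with MSI of at least 20% (y, percent) in each library, for introns chosen without 1 wild-type library (x, 3 rounds); blue bars are the wild-type library left out, grey bars the libraries that chose, and orange bars the knockout. From left to right the blue bar (82.0%, 92.0% and 77.5%) lies between, above and below the 3 orange bars of its round.

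Most detained introns were only moderately retained. In wild type 236 of the 449 lay between 20% and 30% MSI, 139 between 30% and 50%, 45 between 50% and 70%, and 29 above. Knockout medians of these bands were 23.6%, 36.2%, 61.1% and 77.8%. Just inside the minimum were introns of Slc25a40 (20.03%), Clcn2 (20.05%) and Mief2 (20.10%), and just outside those of Cox6b2 (19.98%), Tbce (19.82%) and Luc7l (19.80%). In the knockout these 6 were at 19.96%, 20.23%, 18.98%, 24.08%, 14.80% and 14.19%. The knockout by itself gave 414 introns over 10 bases under the same rule, of which 71 were not in the wild-type set and 47 of these missed only the wild-type MSI minimum. The lowest was an intron of Vps16 (127 bases), a gene of endosomal tethering complexes, at 8.20%, 11.1% and 6.89% in wild type, then 25.1%, 29.0% and 23.0% in the knockout. It was chosen for this difference.

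Most of these genes held 1 intron that met the whole rule, while their other introns pooled to a low MSI. Of the 310 genes, 233 held 1 detained intron, 50 held 2 and 27 held 3 or more. In 298 genes with other introns read, those others had a median pooled MSI of 4.93% in wild type, then 4.87% in the knockout, against 28.8% and 28.0% for the detained introns of the same genes. Pooled by gene, the other introns were under 10% in 242 genes and reached the minimum in 15. They include introns that failed at least 1 other condition of the rule: 7 in Catsperg1 and 5 in Gas5 were themselves at the MSI minimum in wild type. In the knockout, which did not choose them, the detained introns stood above the others in 295 of 298 genes. In 37 of the 77 genes with 2 or more, the detained introns were neighbours in 1 run.

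**Figure D4:**
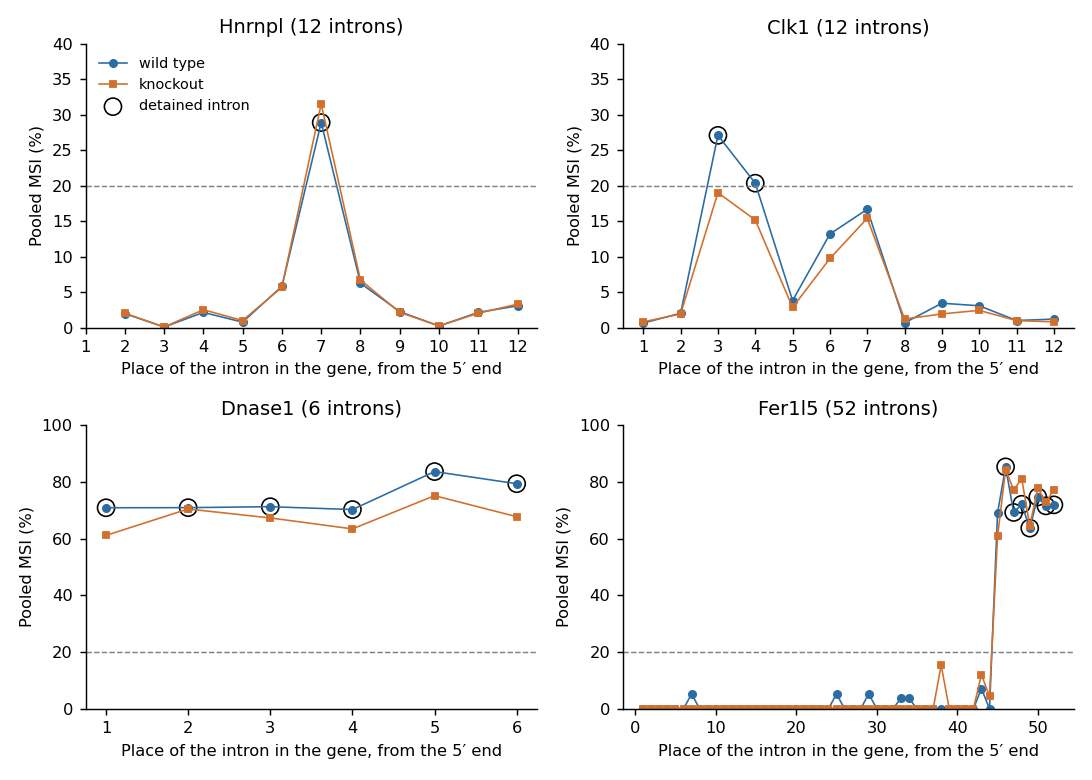
Pooled MSI (y, percent) of each intron by its place from the 5′ end (x) in Hnrnpl, Clk1, Dnase1 and Fer1l5, wild type in blue and knockout in orange; circles mark detained introns, the dashed line is the 20% minimum, and introns overlapped by another listed intron are not drawn. Hnrnpl has 1 peak at place 7, Clk1 a raised block at places 3 and 4 with lesser peaks at 6 and 7, Dnase1 is high throughout, and Fer1l5 is high only toward its 3′ end.

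Detained introns were counted in 13 gene lists, which were set with earlier results of these data known. Of 29 introns of SR proteins and relatives that met the other conditions, 4 were detained (13.8%), and of 21 in kinases of SR proteins and cyclin L genes 3 were (14.3%). Over all introns the share was 10.3%, which in lists of this size is close to both counts, and nothing particular to these genes is read from them. Spliceosome core genes had 3 of 54, hosts of small nucleolar RNAs 4 of 96, genes known to hold a minor intron 2 of 27, hnRNPs and other RNA-binding regulators 1 of 90, and p53 and DNA damage genes 1 of 38. None was detained among 37 introns of RNA decay, export and polyadenylation genes, 13 of O-GlcNAc and methionine cycle enzymes, 27 of cell cycle, 37 of chromatin and transcription, 95 of translation and 14 of naive pluripotency genes.

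Among the SR group, Arglu1, a coactivator that also affects splicing, had the most unspliced reads. Its intron (2280 bases, chr8:8681468-8683747, the second of 3) had MSI of 31.4%, 33.7% and 38.7% in wild type, then 32.4%, 33.8% and 30.8% in the knockout. The groups overlapped. Srrm2 encodes a scaffold of nuclear speckles, and its intron (1090 bases, chr17:23822701-23823790) was at 24.8%, 14.7% and 25.4% in wild type, then at 15.3%, 15.2% and 15.3% in the knockout. Wild-type replicates 2 and 5 were high and replicate 3 lay just below the knockout libraries (log2 odds −0.57, SE 0.25, edgeR adjusted p = 1). This intron also holds Mir5125, annotated by RefSeq at chr17:23823291-23823369, whose mature form lies at chr17:23823339-23823358 and is shown with its seed, bases 2 to 8, in capitals.
mmu-miR-5125: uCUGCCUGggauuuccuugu
Rsrp1, another arginine- and serine-rich gene, was at 43.0%, 51.4% and 46.2%, then at 30.6%, 59.2% and 44.9% in the knockout, where replicates 2 and 3 lay on either side of every wild-type library. Srsf11 was at 18.6%, 25.3% and 19.5%, then 16.55%, 24.02% and 16.4%. Replicate 3 was the highest in both groups for both genes.

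Replicate 3 was also the highest library of both groups in Clk1, the gene of a kinase that phosphorylates SR proteins. Its intron at place 3 (871 bases, chr1:58420212-58421082) had MSI of 12%, 36.6% and 23.5% in wild-type replicates 2, 3 and 5 and of 8.84%, 32.9% and 24.5% in the knockout. That at place 4 (387 bases, chr1:58419734-58420120) was at 7.65%, 27.6% and 18.5%, then at 8.91%, 23.2% and 20.2%. In both introns, libraries of 1 genotype differed from each other by more than the genotypes did, and replicate 2 was the lowest and replicate 3 the highest in both groups. Over the 449 detained introns, replicate 3 was the highest library in both groups for 118 (26.3%), and over comparison introns for 32.9%. Its introns at places 6 and 7 reached 13.2% and 16.7% in wild type, while 8 others stayed at or under 3.81%. Ccnl2, a cyclin that partners with kinases of the splicing machinery, was at 31.1%, 33.3% and 35.6% in wild type, then at 25.1%, 27.7% and 30% in the knockout. Its groups did not overlap (log2 odds −0.41, SE 0.30, edgeR adjusted p = 1).

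**Figure D5:**
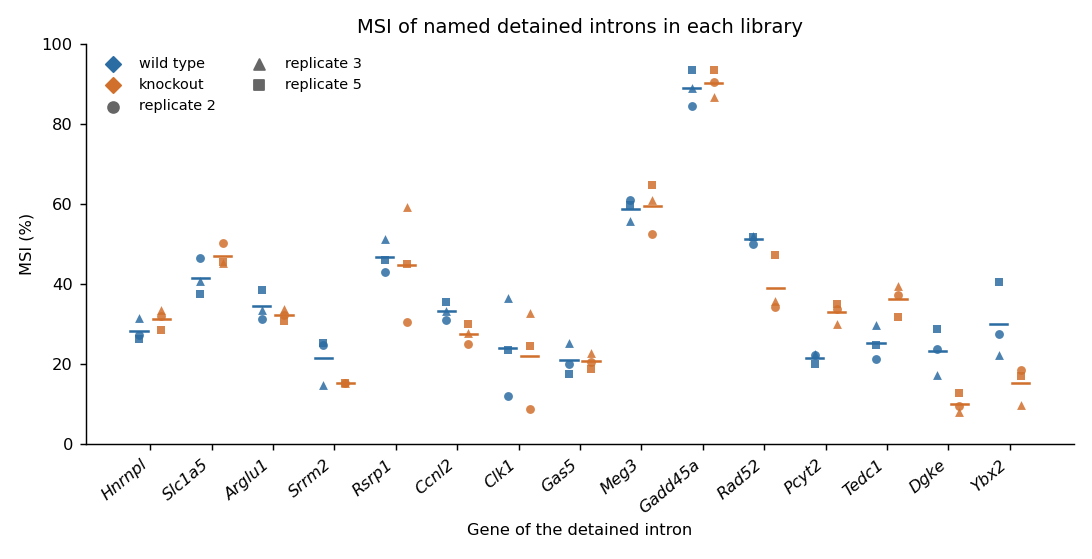
MSI (y, percent) of 15 named detained introns (x) in each library; colour gives the genotype, the symbol gives the replicate number, and the short lines are means of 3 libraries. For Clk1 the intron at place 3 is drawn and for Ybx2 that at place 2. The Clk1 points spread from 8.84% to 36.6% with replicate 3 on top in both genotypes, while Gadd45a lies above 84%. Ccnl2, Rad52, Pcyt2, Tedc1, Dgke and Ybx2 have groups that do not overlap.

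Hnrnpl, an RNA-binding regulator that recognises CA-rich sequences, had the most unspliced reads of all 449. Its seventh intron (111 bases, chr7:28818533-28818643) was at 27.4%, 31.5% and 26.3% in wild type, then 32.0%, 33.6% and 28.6% in the knockout, so the groups overlapped. With 8620 unspliced against 10596 spliced wild-type reads it was well counted, and the other drawn introns of the gene were at or under 6.26% in wild type. Among core spliceosome genes, Prpf39 (a U1 snRNP factor) was at 23.4%, 22.1% and 23.8% in wild type, then 12.4%, 17.5% and 18.4% in the knockout, without overlap (log2 odds −0.67, SE 0.43, edgeR adjusted p = 1). Prpf40b and Prpf38b overlapped between groups, with means of 34.0% ± 3.55 and 30.6% ± 4.37 for the first and 20.5% ± 3.39 and 19.9% ± 6.23 for the second (wild type, then knockout, SD, n = 3). Rad52, a recombination gene, was at 50%, 52.0% and 51.8% in wild type, then lower in every knockout library, at 34.2%, 35.8% and 47.3% (log2 odds −0.74, SE 0.44, edgeR adjusted p = 1).

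Hosts of small nucleolar RNAs carry those RNAs in their introns, and their spliced exons are mostly not translated. Detained introns occurred in Gas5, Snhg1, Snhg5 and Snhg12 of the list, and 5 of the 449 held an annotated small nucleolar RNA (1.11%), against 2.45% of comparison introns. Zfas1, Snhg17 and Dancr are not on the list, although their detained introns hold such an RNA. The 4 of 96 is therefore not the share for all such hosts. The Gas5 intron (304 bases, chr1:161036245-161036548) was at 20.2%, 25.3% and 17.6%, then 20.6%, 22.9% and 18.9% in the knockout. The Snhg1 intron was at 28.1%, 26.2% and 20.3%, then 24.05%, 21.2% and 19.6%. The groups overlapped in both. The Snhg12 intron, which holds Snora16a, was at 24.9%, 28.8% and 28.0%, then 17.7%, 22.8% and 27.6%, and that of Zfas1, which holds Snord12, was at 19.8%, 25.6% and 16.6%, then 19.2%, 21.9% and 19.6%.

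Genes known to hold a minor intron are those that ZRSR2 is known to act on. Of them Braf, a kinase of the MAP kinase pathway, had 2 detained introns, at place 3 (99 bases) and the last (3727 bases) of 21. They had mean MSI of 40.5% ± 0.442 and 28.6% ± 1.20 in wild type, then 36.1% ± 8.91 and 30.9% ± 8.82 in the knockout (SD, n = 3). Both lay within the spread of the knockout libraries, in which replicate 3 was highest at 46.2% and 41.0%. Which introns of these genes are of the U12 type was not read here, since no genome sequence was used. Over all 386 tested introns of the list, 1 rose and none fell in the retention fit described below, and 14 were higher and 6 lower at an unadjusted p under 0.05. Of 235 tested introns of small nucleolar RNA hosts 1 fell and none rose, and in the other 11 lists none of the tested introns passed. Over all introns tested 0.0273% passed and 4.14% had an unadjusted p under 0.05. Both list calls were lost in limma and DESeq2, which called no intron.

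Among the 10 with the most unspliced reads, those outside the lists included introns of Slc1a5, Meg3 and Mbd3. Slc1a5, a transporter of glutamine, kept a 71-base intron (chr7:16795953-16796023) at 46.5%, 40.7% and 37.5% in wild type, then 50.4%, 45.3% and 45.6% in the knockout. The imprinted RNA Meg3 was at 61.0%, 55.8% and 59.9%, then 52.4%, 61.1% and 64.9%. The last intron of Mbd3, a subunit of the NuRD chromatin complex, was at 19.6%, 25.5% and 16.1%, then 22.6%, 28.4% and 24.9%. In all 3 the groups overlapped.

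The highest MSI values belonged to introns with few spliced reads. Among introns with at least 100 unspliced reads in the knockout, Lcor, a nuclear receptor corepressor gene, had the highest pooled knockout MSI, with 153 unspliced and 4 spliced reads (MSI of 100%, 98.0% and 92.2% in wild type, then 84.6%, 96.8% and 100% in the knockout). Gadd45a, a stress-response gene of growth arrest, kept its last intron (1237 bases, chr6:67035773-67037009) at 84.6%, 88.9% and 93.4%, then 90.5%, 86.8% and 93.5%. The groups overlapped in both genes. The last intron of Zfp207, a spindle and splicing protein gene, was at 86.0%, 86.5% and 90.9%, then lower at 80.4%, 85.2% and 79.2%. Detained introns of Gadd45a, Zfp207 and Lcor averaged 17, 81.3 and 4 spliced wild-type reads, against 3791, 2669 and 138 in their genes' other introns. MSI there describes the reads at that interval, not the share of all RNA of the gene. Slc24a5 (92.1% pooled in the knockout), Phykpl (81.5%) and Tmem145 (81.4%) were also among the 10 highest, besides an intron of Fer1l5 (84.4%) and 3 introns in no named gene. With fewer knockout reads (75 unspliced, 1 spliced), the last intron of Spaca6 was higher still, at 97.4%. For Gadd45a and Slc24a5 a gene of the other strand overlaps the intron, E230016M11Rik and Myef2. Of the introns in no named gene, those at chr9:119441100-119441827 and chr3:116629305-116629614 are likewise overlapped, by Acvr2b and Sass6.

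Some genes held many detained introns, either throughout or at 1 end. In Dnase1, which encodes a secreted endonuclease, all 6 listed introns were detained, with pooled MSI of 70.3% to 83.6% in wild type, then 61.2% to 75.1% in the knockout. Spliced reads of these introns numbered only 13 to 29 in wild type. In Fer1l5, a ferlin gene, the 7 introns at places 46 to 52 were detained (63.7% to 85.3%), whereas places 1 to 44 together held 7 unspliced and 461 spliced wild-type reads. The intron at place 45 was at 69.0% in wild type, then 60.8% in the knockout, but its 58 wild-type unspliced reads were too few for the rule. All 7 detained introns are overlapped by Lman2l on the other strand, so their unspliced reads cannot be told from reads of that gene. Introns of Lrrc41 (4, overlapped by Rad54l) and Spaca6 (3, overlapped by Has1) have the same limit.

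No other gene with 3 or more showed such an overlap. Ano9, an anoctamin family gene, held 7 of 23 (23.6% to 36.0% in wild type) while its other introns pooled to 8.05%. There were 5 each in Csf2ra (the GM-CSF receptor chain, 27.9% to 42.8%), Dennd6b (27.0% to 56.9%), Nphs1 (nephrin of the kidney filter, 26.1% to 31.0%) and Yipf2 (a Golgi protein, 21.7% to 36.2%), with other introns at 8.31%, 5.98%, 6.81% and 15.9%. Clcn2, Dus3l, Lrrc41, Ppox, Zbtb48 and Zfp692 had 4 each. Btbd19, Dpp7, Gtpbp2, Klhl17, Krtcap3, Ndor1, Phykpl, Rccd1, Rhbdd3, Spaca6, Tmem191c, Triml2, Ybx2 and Zfp207 had 3 each. Among genes with 3 or more, Zfp207 had the lowest pooled MSI in its other introns (1.80%), and in Spaca6 and Triml2 the other introns were themselves at 62.5% and 32.0%.

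Dpp7 and Ybx2 differed widely between libraries. In Dpp7, a lysosomal peptidase gene, the 3 detained introns together had MSI of 25.2%, 43.4% and 14.05% in wild type, then 32.2%, 48.9% and 37.1% in the knockout. Wild-type replicate 5 was low and replicate 3 was high in both groups, and the groups overlapped. In Ybx2, which encodes a germ-cell RNA-binding protein, the 3 together were at 32.0%, 18.8% and 40.7% in wild type, then 22.9%, 11.8% and 18.02% in the knockout. The groups overlapped for the 3 introns summed, and the other introns of the gene pooled to 12.03% in wild type, then 6.56% in the knockout.

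The change of the unspliced to spliced ratio was fitted for every intron with at least 20 reads in each library. Its log2 odds is the knockout minus the wild type. The SE did not follow each intron's own spread between libraries. It was 0.227 for the Oaz1 interval (MSI of 49.6% to 49.9%) and 0.317 for Clk1 at place 3 (8.84% to 36.6%). Because wild-type values chose the detained introns, what follows describes them and tests nothing. Of 95371 introns tested, 26 (0.0273%) passed an adjusted p of 0.05 in edgeR's quasi-likelihood test, 21 higher and 5 lower in the knockout (26 higher and 15 lower with TMM scaling of each column, 21 and 12 with DESeq2 size factors). Of the 458 detained introns and intervals, 438 were tested and none passed. At an unadjusted p under 0.05 there were 20 (4.57%), 5 higher and 15 lower, beside 4.14% of all introns. limma and DESeq2 also called none and had 6 and 5 at an unadjusted p under 0.05. In simulated counts, edgeR called 28 of 100 introns with many reads whose log2 odds were changed by 1, and 98 of 100 changed by 2. A count of 0 therefore does not show that the detained introns are unchanged. The 26 calls were mostly of introns that are seldom retained, with a median MSI of 1.13% in wild type, then 3.20% in the knockout.

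All 3 knockout libraries lay above all 3 wild types in MSI for 24 of the 438 (5.48%), beside 3.9% of all introns and 3.72% of comparison introns. They lay below for 35 (7.99%), beside 4.01% and 5.15%. Wild-type values chose the introns, so nothing is read from either count. The median log2 odds was −0.004 for the detained introns and 0.02 for all. By length the medians of detained introns were 0.06 at 11 to 99 bases, 0.08 from 100 to under 300, −0.13 from 300 to under 1000 and −0.08 at 1000 or more, and those of comparison introns 0.10, 0.04, −0.04 and −0.06.

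The 5 most positive log2 odds among introns whose groups did not overlap were in Pcyt2, Tedc1, Dennd6b, Fbxw9 and Fbxl6. Pcyt2 makes the activated form of ethanolamine for membrane lipids, and its intron (379 bases, chr11:120612084-120612462) was at 22.3%, 22.6% and 20.1% in wild type, then 33.8%, 30.2% and 34.9% in the knockout. All 3 knockout libraries stood clear of the wild types (log2 odds 0.84, SE 0.34, edgeR adjusted p = 1). Tedc1, a centriole protein gene, was at 21.2%, 29.7% and 24.7%, then 37.3%, 39.6% and 31.7%. An intron of Dennd6b was at 44.6%, 51.3% and 32.7%, then 52.2%, 55.6% and 53.04%, where the gap between groups was under 1 point. Introns of the F-box genes Fbxw9 and Fbxl6 had pooled MSI of 22.0% and 22.5% in wild type, then 31.0% and 30.9% in the knockout (log2 odds 0.64 and 0.62).

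The most negative log2 odds without overlap included those of Ybx2, Dgke and H2-Q6. Ybx2's second intron (1381 bases, chr11:69936961-69938341) was at 27.6%, 22.4% and 40.5% in wild type, then 18.6%, 9.90% and 17.1% in knockout libraries (log2 odds −1.29, SE 0.40, edgeR adjusted p = 0.847). Scaling the unspliced and spliced columns each by TMM or by DESeq2 size factors called this intron (log2 odds −1.36 and −1.39, adjusted p = 0.0264 and 0.0318 in edgeR), and no other detained one. Dgke, a kinase of the lipid diacylglycerol, was at 23.8%, 17.2% and 28.9%, then 9.68%, 8.05% and 12.7% (log2 odds −1.36, SE 0.52, edgeR adjusted p = 1). H2-Q6, a class I histocompatibility gene with near-identical neighbours among which reads may be split, was at 14.7%, 15.9% and 37.1%, then 8.68%, 10% and 13.4%. Its wild-type mean rested on replicate 5. The other 2 were an intron in no named gene (chr9:119441100-119441827) and 1 of a predicted gene. The former had only 3 spliced wild-type reads and is overlapped by Acvr2b on the other strand.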

How the data were processed

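PolyA-selected RNA of 6 libraries was analysed. The authors deposited, for each library, raw read counts per intron without normalization (columns A1, A2 and Exon), a fraction (CovFrac) and a percent (MSI), none of which the headers define. Coordinates are mm10, per the submitters' processing notes. For the aligner and the counter: not given in the sources used here.

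MSI as deposited could be recomputed from the counts with the formula of the opening paragraph, so A1 and A2 were read as boundary counts and Exon as the spliced count. Starts, counted from 0 in the files, were raised by 1. RefSeq positions (GRCm38.p6) gave 94.2% of introns a gene name, and genes on the opposite strand were passed over.

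Pooled values sum the reads of 3 libraries. Ratios of unspliced to spliced reads were fitted in edgeR 4.0.16 (R 4.3.3) with an interaction of read kind and genotype, a term per library and Benjamini-Hochberg adjustment over 95371 introns with at least 20 reads in each library. The script was tested on simulated data. Alternatives used limma 3.58.1 and DESeq2 1.42.0, other scalings and read minimums, a replicate block, other limits of the rule, and single libraries left out.

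The members and gene lists were chosen with earlier results of these data known. The text names the 10 introns with the most unspliced reads, the 10 highest in knockout MSI among those with at least 100 unspliced knockout reads, the 5 most positive and 5 most negative log2 odds without overlap, up to 4 per gene list, and genes with 3 or more. Predicted and Riken genes are mostly counted only. Introns of Slc7a7, Rnf220, Eif4g3, Ccdc40, Ankrd10, Mettl27, Mast1, Platr14, Zfas1 and Vps16 and the non-coding genes listed together were chosen after their values were seen. Sequences come from RefSeq tables of GRCm38.p6, and none of chromosome 18 is shown.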

Additional observations from a re-analysis of the deposited data

How the results depend on the processing

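Over all introns, the 26 calls (21 higher, 5 lower) became 0 in limma and 0 in DESeq2, 41 with TMM per column (26 higher, 15 lower), 33 with DESeq2 size factors (21 higher, 12 lower), 15 without a read minimum, and 7 to 25 when 1 library was left out, the lowest without wild-type replicate 5. Leaving out wild-type replicate 2 gave 15 and leaving out knockout replicate 3 gave 16. Detained introns called numbered 0 except 1 with TMM per column and 1 with size factors, in both cases Ybx2. The cause was not tested.

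With the replicate block there were 23 calls over all introns and none among detained ones. Deviations of same-numbered libraries correlated at 0.105, 0.171 and 0.083 (replicates 2, 3 and 5, over 18217 introns), so the numbers were not taken as pairing the samples, although each library correlated best with its own number.

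The number of detained introns moved with the limits of the rule, from 125 at an MSI minimum of 40% to 1156 at 10%, and was 295 without wild-type replicate 3 and 300 without replicate 5. The share at the minimum in the knockout (87.1% of 458) ran from 82.97% to 88.65% when 1 library was left out, the lowest without knockout replicate 3. Leaving out the 9 shortest intervals, an alternative added after the data were seen, gave 87.3%. The 10 most positive and most negative log2 odds kept their sign under every alternative that gave a value. Depth limits the precision of single introns: the detained introns over 10 bases had a median of 220 wild-type unspliced reads in 3 libraries together and as few as 100.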
